A study of Rattus norvegicus with 13 samples.

Results

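Pretreatment of rats with methamphetamine (METH) was compared with pretreatment with saline in RNA from the ventral midbrain, averaged over the saline and METH challenges that followed. All 13 arrays of the series entered the comparison, 7 from METH-pretreated rats (4 MS and 3 MM arrays) and 6 from saline-pretreated rats (3 SS and 3 SM arrays), and they were assigned by their labels and not by a measured value. In these group names the first letter stands for the pretreatment and the second for the challenge, S for saline and M for METH. The value given for each gene is the mean of MS minus SS and of MM minus SM on a log2 scale, so the challenge is the same on both sides of each difference. All rats were male Sprague-Dawley, 8 weeks old and 330 to 370 g. SS and SM rats were injected with saline for 3 weeks, while MS and MM rats received racemic METH over the same 3 weeks. The METH doses rose from 0.5 to 2.5 mg/kg and were lower again on the last day. The methods put the challenge 72 h after the pretreatment period. The dosing schedule of the study instead shows the last pretreatment on a Monday and the challenge on the Wednesday of that week. The challenge consisted of 8 injections spaced by 1 h, of saline in SS and MS rats and of METH at 5 mg/kg in SM and MM rats. Brains were taken 24 h later. The tissue label names the SN/VTA, that is the substantia nigra with the ventral tegmental area, although the labelling step of the protocol speaks of striatal samples. The labels number the arrays as replicates without tying them to animals, so p-values measure the spread between these arrays.

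The SN/VTA holds the cell bodies of the midbrain dopamine neurons, whose axons supply the striatum and the frontal cortex. METH enters these neurons through the dopamine transporter and drives dopamine out of its vesicles, and binges of high doses injure the dopamine terminals. Gradual exposure to lower doses beforehand is known to lessen that injury, a form of preconditioning, and the average over both challenges asks which transcripts carry a trace of such a history whatever injection came last.

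Signals are in units of background-subtracted fluorescence after division by the median ratio of each array, and the lower limit of the deposited ratios was reached by 26.6 to 30.5% of probes per array. MS replicate 4 had the lowest median ratio (0.77, against up to 0.952) and lay farthest out on the first principal component (27.8, where the lowest array was at -13.7). Th, the rate-limiting enzyme of dopamine synthesis, was measured on all 13 arrays, at 235 to 2500 units after saline (median 902) and 336 to 2980 after METH (median 537). The vesicular monoamine transporter Slc18a2 was likewise measured on all arrays, at 136 to 764 and 198 to 708 units. The dopamine transporter Slc6a3 was at the limit on MS replicate 3 and reached 2350 units on SM replicate 3, and the probe for Ddc, the enzyme that forms dopamine, was at the limit throughout. The defining markers were thus present, at levels that varied several-fold within both arms. Pretreatment differences of these 3 measured genes were smaller than or near their errors (log2 difference -0.18 with SE 0.57 for Th, 0.00 with SE 0.40 for Slc18a2, -1.05 with SE 1.22 for Slc6a3). In bulk tissue, fewer cells of a type and less RNA per cell cannot be told apart.

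Signals after METH pretreatment were higher for the apelin receptor Aplnr, the growth factor-binding protein Igfbp4, the trafficking receptor Lrp10, the neurotrophic cytokine Cntf and the histone deacetylases Hdac1 and Hdac3, by 1.14- to 1.66-fold. They were lower for the transcription factor Sox4, the translational regulator Ngdn, the stress-induced kinase Sgk1 and the NF-kappaB inhibitor Nfkbia, by 1.34- to 1.71-fold. Across all genes no effect stood out. Of 17140 probes tested, 545 (3.18%) had an unadjusted limma p under 0.05, 335 higher (1.95%) and 210 lower (1.23%). With no effect at all, a threshold of 0.05 would on average give a larger share than this. After Benjamini-Hochberg adjustment of the limma p-values 0 probes passed (smallest adjusted p 0.849). Under other settings of the same fit 2 probes passed with no filter, 2 with eBayes without a trend, 2 without SM replicate 1 and 59 within replicates 1 and 2 alone. The study's criterion, which asks for a 1.7-fold difference and an unadjusted p under 0.05, was met by 183 probes (1.07%), 98 higher (0.572%) and 85 lower (0.496%). The genes below are therefore the leading ones of this comparison by a fixed rule, each with adjusted limma p of 0.849 or more.

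Most of the 183 probes were dim. Of probes with a mean of 1 to 5 units 4.34% met the criterion, of those at 20 to 50 units 0.326% and of those at 500 to 5000 units 0.0555%. The spread between arrays of a group had a median SD of 3.08 units at 1 to 5 units and of 7.57 units at 20 to 50 units, so that a ratio between dim signals has little precision. Some array lay at the limit for 130 of the 183 probes, and 53 were above it on all 13 arrays. The account therefore follows genes above the limit on every array. For many of the dim genes it also gives the difference on log2 of the signal plus 16 units, where small signals weigh less.

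**Figure D1:**
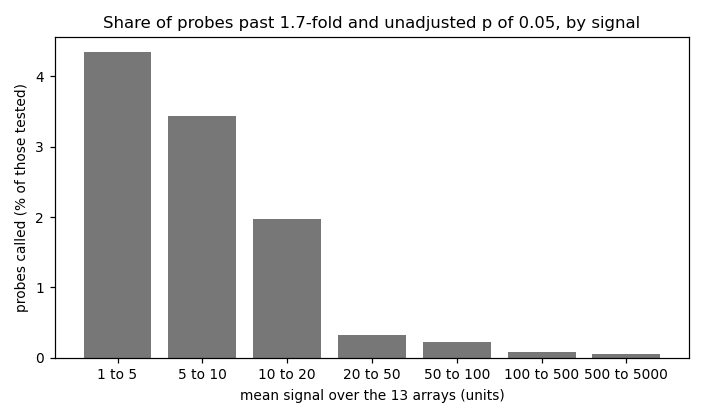
Share of tested probes (vertical axis, percent) that met the criterion for METH-pretreated against saline-pretreated arrays, by the mean signal of the probe over 13 arrays (horizontal axis, units). The share falls from 4.34% at 1 to 5 units to 0.0555% at 500 to 5000 units. Probes with a mean under 1 unit or over 5000 units are not shown.

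Aplnr, a receptor of vascular and neural cells coupled to G proteins, had the smallest p of all probes. Its signal was 151, 125 and 131 units in SS and 178, 208, 180 and 200 in MS, and 113, 110 and 110 in SM and 137, 140 and 143 in MM. Every METH-pretreated array was above every saline-pretreated array of the same challenge. The log2 difference was 0.42 (SE 0.07, unadjusted limma p = 6.93e-05, exact permutation p = 0.00143, the smallest that 700 relabellings within challenges can give), with 0.50 under saline challenge and 0.34 under METH challenge.

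Igfbp4, which binds insulin-like growth factors and limits their action, stood at 30.6, 27.9 and 23 units in SS and at 42.3, 30.4, 31.6 and 39.2 in MS, and at 17.9, 17.8 and 21.6 in SM against 30.7, 30.1 and 33.1 in MM. Only 1 saline-pretreated array, SS replicate 2, reached into the range of the METH-pretreated arrays. The difference was 0.56 (SE 0.12, exact permutation p = 0.00571).

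Lrp10, a receptor of the low-density lipoprotein receptor family that cycles between the Golgi and endosomes, was at 349, 299 and 565 units in SS, 729, 697, 711 and 736 in MS, 470, 339 and 574 in SM and 556, 791 and 682 in MM. MM replicate 1 alone lay below the highest saline-pretreated array. The difference was 0.73 (SE 0.17, exact permutation p = 0.00286).

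Cntf, a cytokine of astrocytes that sustains neurons, separated the arms completely. It measured 658, 554 and 622 units in SS, 528, 564 and 474 in SM, 681, 688, 903 and 789 in MS and 660, 795 and 690 in MM, a difference of 0.39 (SE 0.10, exact permutation p = 0.00429). The nearest arrays, SS replicate 2 and MM replicate 1, differed by little.

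The other genes among the 12 leading higher ones were Akr1c14, Fmo1, Plxdc1, Or6n1, Ccdc80, Sertad1, Ammecr1l and Hdac1. Akr1c14, a hydroxysteroid dehydrogenase that forms the neurosteroid allopregnanolone, ranged from 8.07 to 15.8 units after saline (median 11.6) and from 15 to 27.2 after METH (median 20.7), a difference of 0.86 (SE 0.20) that was 0.41 on the scale of signal plus 16. Fmo1, a flavin-containing monooxygenase that oxidises drugs and other amines, ranged from 9.87 to 30.7 units (median 18.4) and from 28.5 to 40.5 (median 34.3), a difference of 0.94 (SE 0.25), or 0.54 on that scale. For both genes the METH-pretreated arrays barely overlapped the upper end of the saline-pretreated ones. Plxdc1, a membrane protein best known from blood vessels, had a difference of 1.22 (SE 0.31), or 0.50 on that scale, at medians of 7.62 and 16.4 units. On floored values its difference was larger under METH challenge (1.93) than under saline challenge (0.50, p of the difference 0.039). Among brighter genes, the secreted matrix protein Ccdc80 was at 286 to 382 units (median 319) against 363 to 427 (median 384), and the transcriptional coregulator Sertad1 at 57.1 to 78.9 (median 67.9) against 71.9 to 104 (median 91.1), differences of 0.25 (SE 0.07) and 0.39 (SE 0.10). The olfactory receptor gene Or6n1 was dimmer, at 14.2 to 26.7 units (median 19.3) against 21.5 to 36 (median 28.6). Its difference was 0.52 (SE 0.10), or 0.30 on the scale of signal plus 16. Ammecr1l was higher under saline challenge (0.75) and close to level under METH challenge (0.04, p of the difference 0.00631). These p-values of a difference between challenges are unadjusted and from limma, and the smallest adjusted one over all probes was 0.849.

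Sox4, a transcription factor of the SRY box family that guides neuronal and glial development, led the lower genes. It read 127, 236 and 204 units in SS and 126, 141, 148 and 111 in MS, and 178, 182 and 159 in SM and 77, 69.9 and 105 in MM. Under METH challenge the arms were far apart, whereas under saline challenge SS replicate 2 fell among the MS arrays. The log2 difference was -0.77 (SE 0.15, exact permutation p = 0.00571), with -0.48 and -1.06 under the 2 challenges (p of the difference 0.0798).

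Ngdn, neuroguidin, which binds the cap-binding factor eIF4E and restrains translation in neurons, lay between 1430 and 1550 units on all 6 saline-pretreated arrays. In MS it was at 1100, 1150, 994 and 1470 units and in MM at 919, 1070 and 1070. The exception, MS replicate 4 at 1470, fell within the saline range, while the other 6 METH-pretreated arrays were below it. The difference was -0.44 (SE 0.09, exact permutation p = 0.00571).

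The other leading lower genes had smaller or dimmer differences. Eva1a, a membrane protein linked to autophagy, was at 31.7 to 42.4 units after saline (median 37) and 25.6 to 32.9 after METH (median 29.5; difference -0.32, SE 0.08), and 6 of 7 METH-pretreated arrays were below every saline-pretreated one. Bmal1, the partner of Clock in the circadian transcription factor, was at 68.9 to 112 units (median 85.1) and 65.5 to 88.4 (median 79.3), so the arms overlapped, but within each challenge they did not, and its difference was -0.22 (SE 0.07). Exact permutation p was 0.00143 for both. Rdh10, which oxidises retinol on the way to retinoic acid, had a difference of -0.68 (SE 0.20), or -0.41 on the scale of signal plus 16. The transcription factor Atf2 had one of -0.29 (SE 0.08), and the membrane protein Tmem200c one of -0.33 (SE 0.10). Gpr27, an orphan receptor, was lower under saline challenge (-0.60) and nearly level under METH challenge (-0.06, p of the difference 0.0159). The tetraspanin Cd63 of late endosomes showed the opposite order, at -0.01 and -0.49 (p of the difference 0.00462). Cbln2, a secreted organiser of synapses, was lower by a dim probe with a mean of 15.5 units (-0.95, SE 0.27, or -0.42 on the scale of signal plus 16). A second, brighter probe with a mean of 68.3 units gave -0.10 (SE 0.16), so its probes disagree.

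**Figure D2:**
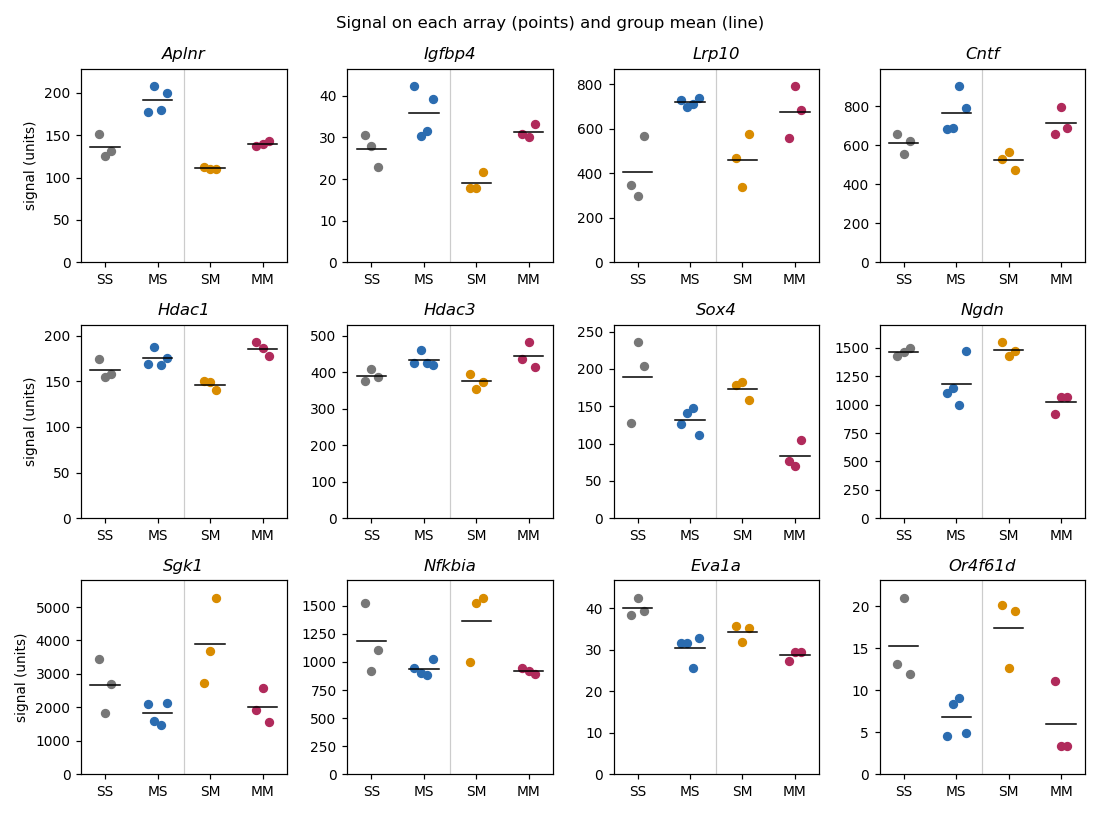
Signal in units (vertical axis, from 0) on each of the 13 arrays (points) with the mean of each group (line), for 12 genes; SS and MS had a saline challenge, SM and MM a METH challenge. Cntf and Hdac3 lie higher on all 7 METH-pretreated arrays than on all 6 saline-pretreated arrays, and Or4f61d lower, whereas Sgk1 and Nfkbia overlap.

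Of 17140 probes 10 (0.0583%) placed all 7 METH-pretreated arrays outside all 6 saline-pretreated arrays, 6 higher and 4 lower. The named ones that were above the limit everywhere are Cntf, Hdac3, Exosc2 and Tusc2 on the higher side and Or4f61d, Ctsl and Wdr83os on the lower side. Exosc2, Tusc2, Ctsl and Wdr83os fall outside the rule for named genes and were picked after their values were seen. Exosc2, a subunit of the RNA exosome, was at 178 to 194 units (median 185) against 196 to 221 (median 209), a difference of 0.16 (SE 0.05). Tusc2, a mitochondrial tumor suppressor, was at 482 to 527 units (median 512) against 542 to 604 (median 555), a difference of 0.15 (SE 0.06). Ctsl, the lysosomal protease cathepsin L, was at 4100 to 4840 units (median 4270) against 3870 to 4080 (median 3930), a difference of -0.15 (SE 0.07). These 3 differences were small and had an exact permutation p of 0.00143 each. Complete separation of the arms all but fixes so small a value. Because these genes were picked for that separation, the value adds no support. Whether 10 such probes exceed what relabelled arrays would give was not tested. Wdr83os had a difference of -0.10 (SE 0.06, exact permutation p = 0.00286), and its limma p was not under 0.05. Or4f61d, an olfactory receptor gene, was dim, at 11.9 to 21 units (median 16.3) against 3.38 to 11.1 (median 4.94), a difference of -1.48 (SE 0.31) or -0.54 on the scale of signal plus 16.

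The largest folds came from genes with scattered arrays. Atp7a, a copper-transporting ATPase, was at 8.65, 5.34 and 90.8 units in SS, 35.2, 7.23 and 13.3 in SM, 91, 90.1, 137 and 26.3 in MS and 125, 32.5 and 71.2 in MM. Its arms overlap through SS replicate 4 and SM replicate 1, and its difference of 2.16 (SE 0.68) had an exact permutation p of 0.0229. Rpl30, a ribosomal protein of the large subunit, was at 3530 to 4230 units on 9 arrays but at 181 and 277 on SM replicates 3 and 4 and at 7460 and 7770 on MS replicate 4 and MM replicate 2. Those 4 arrays set its difference of 1.63 (SE 0.61, exact permutation p = 0.141). Grm5, a metabotropic glutamate receptor, was at 35 to 63.6 units (median 42.2) against 10.5 to 50.5 (median 24.4), a difference of -0.83 (SE 0.36) that came to -0.16 within replicates 1 and 2 and to -1.59 within replicates 3 and 4. Otor (1.51, SE 0.41), Zpbp (1.7, SE 0.72), Kctd19 (1.14, SE 0.41) and Lgals5 (1.12, SE 0.46) on the higher side, and Pard6g (-1.38, SE 0.56), Dnaaf11 (-1.32, SE 0.58), Hmcn1 (-0.90, SE 0.34) and Tnfsf15 (-0.85, SE 0.28) on the lower side, were the other genes of largest fold above the limit everywhere that are not described above. On the scale of signal plus 16 the same genes, in this order, had differences of 0.44, 0.32, 0.34 and 0.82, and of -0.58, -0.32, -0.30 and -0.33.

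Whether the pretreatment effect was shared by the saline-challenged and METH-challenged rats can be asked directly, since MS minus SS and MM minus SM have no array in common. The criterion was met by 193 probes (1.13%) under saline challenge and by 266 (1.55%) under METH challenge. After adjustment 1 probe passed under saline challenge, ILMN_1368942, which has no symbol, a mean of 1.03 units and 4 arrays above the limit (limma, adjusted p = 0.0431), and 0 passed under METH challenge. Over all 17140 probes the 2 differences had a correlation of 0.03 across probes, which are not independent replicates, and 50.6% had the same sign. Of the 193 probes 53.4% and of the 266 probes 55.6% had the same sign in the other challenge. Only 5 probes met the criterion in both with the same sign, which is 2.59% of the 193 and 1.88% of the 266, and 3 met it in both with opposite signs. The difference between the 2 effects met the criterion for 285 probes (1.66%). The 24 leading genes have the same sign in both challenges, a feature that their choice by the average favours.

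**Figure D3:**
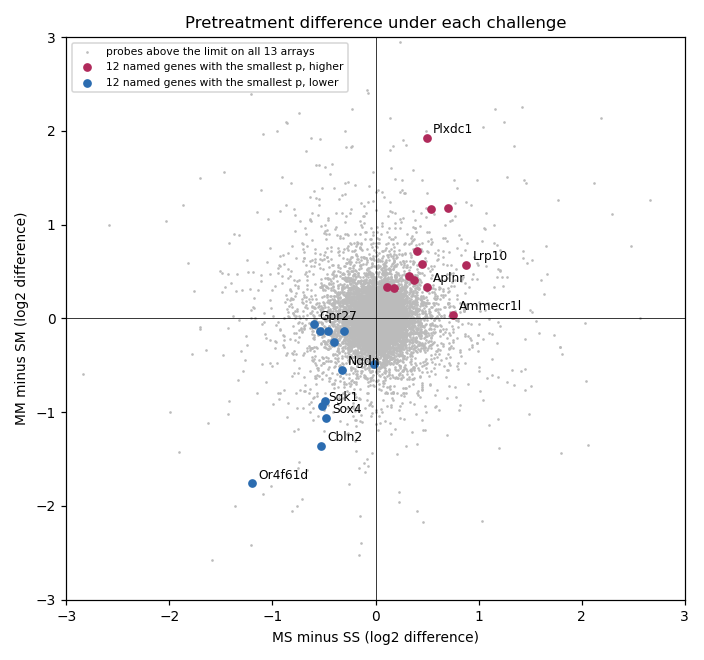
Log2 difference under saline challenge (MS minus SS, horizontal axis) against that under METH challenge (MM minus SM, vertical axis) for the probes above the limit on all 13 arrays, of which 3 lie outside the axes. The cloud shows no slope (correlation 0.03), and the 24 named genes chosen by their average lie in the quadrants of equal sign.

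The 5 probes that met the criterion in both were Or4f61d, Fam111a, Krt81 and 2 without a symbol, and only Or4f61d and 1 of the unnamed were above the limit on all arrays. Fam111a, a protease of DNA replication named here after its values were seen, was at the limit on SS replicates 3 and 4 and SM replicates 1 and 4, at 180 and 140 units on the other 2 saline-pretreated arrays and at 102 to 406 units on all 7 METH-pretreated arrays. Its signal was thus either present or at the limit, with no array between. Krt81, a hair keratin, was at the limit on all 7 METH-pretreated arrays and at up to 8.6 units after saline.

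Sgk1, a kinase that regulates ion channels and transporters and is a classical target of the glucocorticoid receptor, was among the brightest of the lower genes. It was at 3460, 1840 and 2710 units in SS, 2720, 3690 and 5270 in SM, 2110, 1590, 1480 and 2120 in MS and 1920, 2580 and 1550 in MM. All 3 MM arrays lay below all 3 SM arrays, while in the saline challenge SS replicate 2 was high and SS replicate 3 lay among the MS arrays. The difference was -0.72 (SE 0.20, exact permutation p = 0.0129), with -0.52 and -0.93 under the 2 challenges. Nfkbia, the inhibitor that holds NF-kappaB in the cytoplasm, was at 1530, 919 and 1110 units in SS and 1000, 1530 and 1570 in SM, and at 943, 906, 883 and 1030 in MS and 946, 916 and 890 in MM. Its METH-pretreated arrays all lay between 883 and 1030 units, and the saline-pretreated arrays spread upward from there, a difference of -0.43 (SE 0.13, exact permutation p = 0.01).

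Both belong to a list of 19 glucocorticoid-responsive genes, of which 16 were tested and 13 were lower, with a median difference of -0.17, against a median of 0.01 and 45.6% lower over all probes. The median was -0.14 under saline challenge and -0.20 under METH challenge, and 8 members were lower under both. Unadjusted limma p was under 0.05 for 2 members, Sgk1 and Nfkbia (12.5%, against 1.23% of all probes). The other members above the limit had smaller values: -0.31 (SE 0.22) for the phosphatase Dusp1, -0.23 (SE 0.15) for the clock gene Per1, -0.16 (SE 0.10) for the transcription factor Klf9 and -0.22 (SE 0.25) for the kinase Pdk4. Fkbp5 and Tsc22d3, 2 of the most direct targets of the receptor, were level at 0.05 (SE 0.13) and -0.01 (SE 0.08). On log2 of signal plus 16 units, centred per gene over the 13 arrays, the mean of the 13 members above the limit ranged from -0.28 to 0.39 over saline-pretreated arrays (median 0.135) and from -0.24 to 0.10 over METH-pretreated arrays (median -0.10), so the arms overlapped. SM replicate 4 was highest, at 0.39, and the arrays of the saline-pretreated arm differed more among themselves than those of the METH-pretreated arm.

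**Figure D4:**
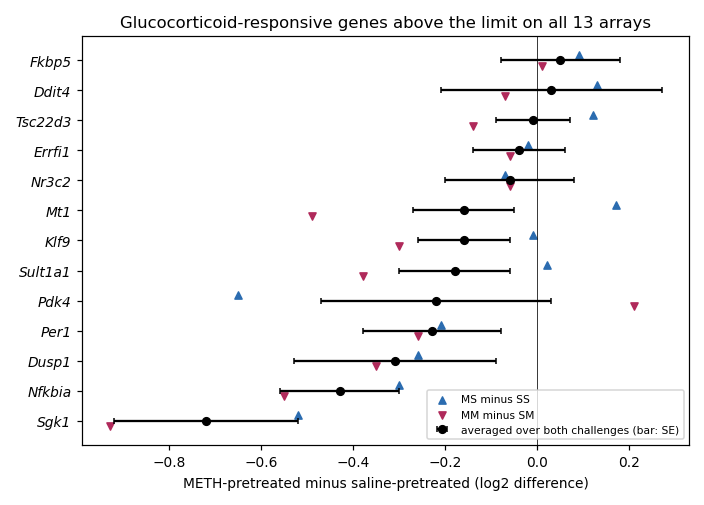
Log2 difference between METH-pretreated and saline-pretreated arrays (horizontal axis) for the 13 glucocorticoid-responsive genes above the limit on all arrays; black points are the average with its SE, triangles the values under each challenge. Sgk1 (-0.72) and Nfkbia (-0.43) lie farthest to the left, and Fkbp5 and Tsc22d3 near 0.

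The promoter of Nfkbia is shown because this gene is a known target of the factor it inhibits. The 250 bases before its start site, on the minus strand at chr6:78597073-78597322 of GRCr8 (RefSeq), read as follows, with a match to a consensus NF-kappaB site in capitals. The site was searched on both strands and the capitals are its reverse complement, so they spell the motif in full.
Nfkbia: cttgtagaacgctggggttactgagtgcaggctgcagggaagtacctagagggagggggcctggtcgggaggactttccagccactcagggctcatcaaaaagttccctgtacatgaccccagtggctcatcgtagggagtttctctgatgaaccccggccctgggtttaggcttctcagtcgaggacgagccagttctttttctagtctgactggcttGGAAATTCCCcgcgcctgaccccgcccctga
The match lies 31 to 22 bases before the start, and 0.0687% of 33469 rat promoters of this length hold this motif. The glucocorticoid receptor half-site AGAACA, held by 17.5% of promoters, was not found in this window on either strand. A match describes the letters and says nothing of binding in these rats.

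Among enzymes that write and erase chromatin marks, Hdac1 and Hdac3 were higher after METH pretreatment. Hdac1, a class I deacetylase of nuclear corepressor complexes, was at 174, 155 and 158 units in SS and 169, 188, 168 and 176 in MS, and at 150, 149 and 140 in SM and 193, 186 and 178 in MM. The arms were apart under METH challenge and overlapped under saline challenge (differences 0.34 and 0.11, p of the difference 0.0636), with an average of 0.23 (SE 0.06, exact permutation p = 0.00857). Hdac3, the deacetylase of the NCoR complex, was at 376, 408 and 386 units in SS, 395, 355 and 374 in SM, 424, 461, 424 and 419 in MS and 435, 482 and 415 in MM. It separated the arms completely, with a difference of 0.19 (SE 0.06, exact permutation p = 0.00143). Hdac2 (0.02), Hdac4 (0.02), Hdac8 (0.00) and Hdac11 (-0.03) were near 0, as were the DNA methyltransferases Dnmt1 (-0.03, SE 0.10) and Dnmt3b (-0.07, SE 0.12), and Dnmt3a was at -0.26 (SE 0.19). Of 19 members tested 2 were higher and 1 lower at an unadjusted limma p under 0.05, beside 1.95% and 1.23% of all probes, and the median was -0.01. The lower one was Hells, a helicase that opens chromatin to the DNA methyltransferases, which was at the limit on 6 arrays and whose difference was -0.20 on the scale of signal plus 16.

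Among transcripts of transmitter release, Nsf was higher and Stx1a, Syngr4 and Syt2 were lower. Nsf, the ATPase that takes spent SNARE complexes apart, was at 1830 to 3130 units after saline (median 2080) and 2140 to 3960 after METH (median 3330), a difference of 0.42 (SE 0.16, exact permutation p = 0.0229). Stx1a, a SNARE protein of the presynaptic membrane, was at 46.3 to 59.4 units (median 50.8) against 22.7 to 51.4 (median 43.7), a difference of -0.36 (SE 0.15). The dim vesicle protein Syngr4 had one of -0.65 (SE 0.22), or -0.29 on the scale of signal plus 16. Synaptotagmin II (Syt2), which falls outside the rule for named genes, had one of -0.61 (SE 0.26). It was -0.86 under saline challenge and -0.37 under METH challenge. Of 25 members tested 1 was higher and 3 were lower at an unadjusted limma p under 0.05, beside 1.95% and 1.23% of all probes, and the median was 0.01. Synaptophysin (Syp, 0.02) and synapsin I (Syn1, 0.04) were level. When each array was left out in turn, unadjusted limma p stayed under 0.05 in 11 of 13 fits for Nsf (at most 0.0596) and in 8 of 13 for Stx1a (at most 0.0681).

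Other stress and survival lists held at most 2 members each with an unadjusted limma p under 0.05. Over all probes 1.95% were higher and 1.23% lower at that threshold. Cntf was the 1 of 15 neurotrophic factors and receptors with an unadjusted limma p under 0.05 (median of the list 0.02), and its receptor Cntfr was at -0.03 and Bdnf at 0.03 (SE 0.07). In the circadian list of 12 Bmal1 was lower and Clock higher, the latter at 4.51 to 18.1 units against 12.9 to 25.8 (difference 0.78, SE 0.28, or 0.32 on the scale of signal plus 16), with a list median of 0. Among 19 heat shock and chaperone genes (median 0.04) the dim Hspb2 was higher, mostly under METH challenge. Cryab, a small heat shock protein of glia, was at 4690 to 6520 units (median 5870) against 3970 to 5550 (median 4610), a difference of -0.27 (SE 0.11, exact permutation p = 0.0243). Of 27 antioxidant genes none had an unadjusted limma p under 0.05. The list had 20 higher members and a median of 0.06, beside 54.4% higher and a median of 0.01 over all probes. The closest were catalase (Cat, 0.18, SE 0.09) and the glutathione-forming enzyme subunit Gclm (0.16, SE 0.08). Of 36 interferon-stimulated genes 1, the dim chemokine Cxcl11, was lower, and of 16 immediate early genes none had an unadjusted limma p under 0.05, with medians of 0.04 and 0.01.

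The study followed 16 genes by quantitative PCR, of which 13 have a named probe and 12 were tested here. Its PCR compared the groups with one another, and the increases it reports followed the METH challenge. A challenge effect common to both pretreatments drops out of the average used here, so the values below do not test those increases. Of the 12 genes tested, 9 were above the limit on all arrays, among them Fos, Jun, Junb, Trh, Sod1, Sod2, Gpx1 and Hmox1. These 9 had differences between -0.17 and 0.07 and none had an unadjusted limma p under 0.05. Hspb2, a small heat shock protein, was the exception among the 12. It was at the limit on 5 of 6 saline-pretreated arrays and at 0.13 units on the other. After METH pretreatment it was at 2.03, 6.62 and 3.53 units on the 3 MM arrays and at 3.39 units on MS replicate 2. The other 3 MS arrays were at the limit. On floored values its difference was 1.21 under saline challenge and 4.88 under METH challenge (unadjusted limma p of the difference 0.0528). The average of 3.04 (SE 0.85) on floored values was 0.19 on the scale of signal plus 16, and the signals of Hspb2 are of the size of the SD between arrays there (3.08 units).

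Marker lists of cell types and neighbouring regions were read beside these results. Of 14 dopamine neuron markers 5 were higher and 9 lower, none with an unadjusted limma p under 0.05, and the median was -0.02. On the same centred scale of signal plus 16, the mean of the 10 above the limit ranged from -0.61 to 0.36 after saline and from -0.40 to 0.47 after METH. Markers of astrocytes (median -0.03 over 14), myelin (-0.01 over 18) and microglia (0.00 over 18) were near level. The 7 markers of oligodendrocyte precursors were all lower (median -0.13), beside 45.6% of all probes, with none at an unadjusted limma p under 0.05. Their median was -0.07 under saline challenge and -0.02 under METH challenge, and 3 were lower under both (42.9%, against 21.9% of all probes). It was -0.02 within replicates 1 and 2 and -0.18 within replicates 3 and 4. Serotonin neuron markers had a median of -0.19 over 9, from -0.47 under saline challenge and 0.10 under METH challenge. MS replicates 3 and 4 lay at -0.88 and -0.71 and SS replicate 4 at -0.75 in the mean of the 8 above the limit, against -0.01 to 0.43 on the other 10 arrays.

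**Figure D5:**
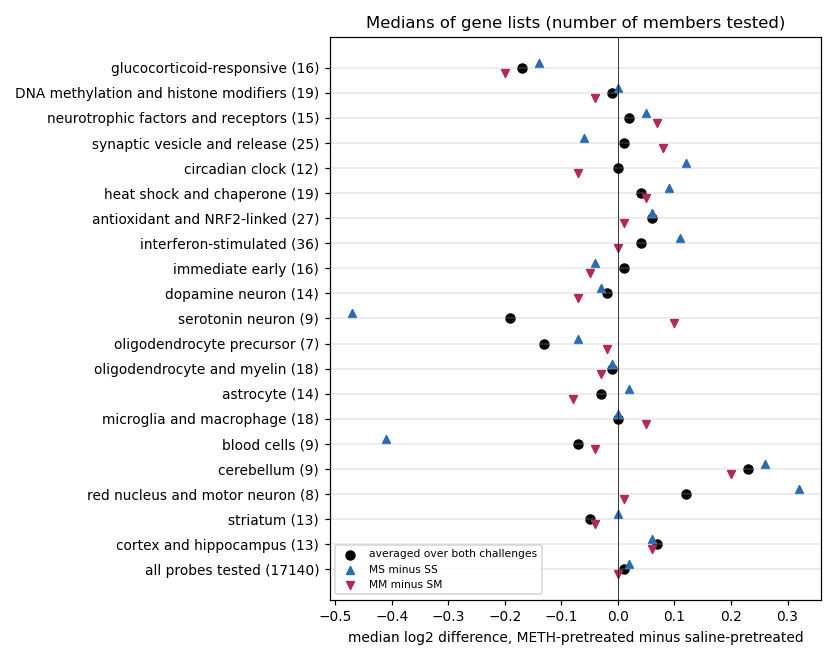
Median log2 difference between METH-pretreated and saline-pretreated arrays (horizontal axis) of gene lists, with the number of members tested, averaged over both challenges (black) and under each challenge (triangles). The glucocorticoid-responsive list lies at -0.17 and the cerebellar list at 0.23, while all probes lie at 0.01.

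Genes named for the cerebellum, several of which other brain regions also express, were higher in 9 of 9, beside 54.4% of all probes. Their median was 0.23, with 0.26 and 0.20 under the 2 challenges. Rgs8, which shortens signalling by G proteins and marks Purkinje cells, was at 148 to 197 units after saline (median 171) and 173 to 266 after METH (median 211), a difference of 0.31 (SE 0.09, exact permutation p = 0.0157). Car8, a carbonic anhydrase-related protein of Purkinje cells, was at 145 to 184 units (median 153) against 161 to 231 (median 184), a difference of 0.23 (SE 0.10, exact permutation p = 0.0271). The mean of the 8 members above the limit was -0.17 to -0.05 on saline-pretreated arrays and -0.13 to 0.32 on METH-pretreated arrays, with 5 of 7 above every saline-pretreated array and MS replicates 1 and 2 not. Pcp2, the most selective Purkinje cell marker of the list, was at the limit on some arrays and had a difference of 0.91 with an unadjusted limma p of 0.596. Neurofilaments and cholinergic genes that mark red nucleus and motor neurons were higher in 8 of 8 (median 0.12), beside 54.4% of all probes. Their median was 0.32 under saline challenge, 0.01 under METH challenge and -0.02 within replicates 1 and 2. None of them had an unadjusted limma p under 0.05. MS replicate 3 was highest for both lists (0.32 and 0.48). The part of these tissues in the differences above was not tested.

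Blood cell markers had a median of -0.07 over 9, from -0.41 under saline challenge and -0.04 under METH challenge. On the centred scale of signal plus 16 the mean of the 8 above the limit was 0.19 to 0.41 in SS and -0.22 to 0.14 in MS, without overlap, and -0.19 to -0.12 in SM and -0.27 to -0.03 in MM. Unadjusted limma p was under 0.05 for 3 members, beside 3.18% of all probes. Alas2, the first enzyme of heme synthesis in red cells, was lower (14.1 to 42.9 units, median 18, against 7.23 to 19.4, median 14.5; difference -0.76, SE 0.24), as was the platelet chemokine Pf4 (-0.33, SE 0.15), while the red cell anion exchanger Slc4a1 was higher (0.27, SE 0.11). Hemoglobin alpha (Hba-a2) was at -0.64 (SE 0.30), hemoglobin beta (Hbb) at -0.07 and its paralog Hbb-b1 at -0.03, and the probes of such similar genes may bind RNA of both.

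In all 51 lists together, 41 of the 897 members tested had an unadjusted limma p under 0.05, beside 3.18% of all probes.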

How the data were processed

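RNA of the SN/VTA was hybridised to Illumina RatRef-12 arrays, 22523 probes each. The authors extracted signals in BeadStudio and normalized them globally in GeneSpring. The deposited values are ratios of a scaled, background-subtracted signal to the median of the probe over the 13 arrays (a constant of 10 units for dim probes), with a lower limit of 0.01 that 28.21% of values had reached. Signals in units were recovered from whole-number steps in the ratios (29831 of 29831 dim values whole within 0.02 steps) for 22510 probes. Ratios were divided by the array median, set to a floor of 0.012 (the 25th percentile), taken to log2, and tested where at least 3 arrays exceeded the floor (17140 probes, 11320 with a symbol). One mean per group was fitted with limma 3.58.1 in R 4.3.3 (eBayes with a trend), and p-values were adjusted over all probes. The scripts were tested on simulated data. Single genes were also tested by two-sided exact permutation within challenges. The number of arrays limits the precision.

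Genes named are the 12 with the smallest p and up to 8 with the largest fold in each direction among probes above the limit on all arrays, up to 3 members of each of 51 lists with an unadjusted p under 0.05, and fixed reference and PCR genes. List members are given by their brightest probe, and genes named for their p or fold by the probe that met the rule. The comparison, genes and lists were chosen with earlier results of these data known, so counts over lists are descriptions. Replicate numbers were not used as pairs, since the labels do not say what they mark and not every same-numbered pair deviated together. The arrays present are replicates 2, 3 and 4 of SS, 1, 3 and 4 of SM, 1 to 4 of MS and 1 to 3 of MM. The arms are thus not balanced over replicate numbers, and the main fit does not adjust for them. Gene names came from the platform annotation, and 8730 probes had none.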

Additional observations from a re-analysis of the deposited data

Results flagged for a closer look

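Within the 4 MS arrays, 6 of 80 named genes had 1 array far from the other 3, not far from the 1 in 20 or so that chance alone gives. The share over all probes was not computed. MS replicate 4 stood apart for Akr1c14 at 27.2 units (15 to 16.3 on the others) and for Rpl30 at 7460 (3530 to 3920). MS replicate 3 stood apart for Eva1a at 25.6 units (31.5 to 32.9), Zpbp at 6.73 (9.34 to 9.95) and Scn4a at 13.5 (20.1 to 21). MS replicate 2 stood apart for Hdac3 at 461 units (419 to 424).

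The pretreatment difference under METH challenge departed from that under saline challenge at an unadjusted limma p under 0.05 for 11 of 90 named genes, beside 2.86% of all probes, and none passed after adjustment over all probes (smallest adjusted limma p 0.849). It was more positive by 1.43 for Plxdc1, 0.54 for Gpr27, 2.01 for Kctd19, 2.9 for Rpl30 and 4.89 for the dim Hells, on the log2 scale. It was more negative for Ammecr1l (-0.71), Cd63 (-0.49), the myelin protein Mal (-0.37), the ribosomal protein Rpl6 (-0.56), the potassium channel Kcnk12 (-0.72) and Gapdh (-0.29). Rpl30 rests on SM replicates 3 and 4, and Gapdh is a reference gene whose average difference was 0.00. Most named genes were chosen by their p or fold on these same arrays, and both contrasts use the same estimate of spread for a probe. That choice can favour a small p of the difference too, so 11 of 90 cannot be read as an excess.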

How the results depend on the processing

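The count of 183 probes depended on dim signals: it was 13 on log2 of signal plus 16 units and 48 among probes above the limit on all arrays. The matching counts were 19 and 81 for the 193 probes under saline challenge, 53 and 126 for the 266 under METH challenge, and 98 and 170 for the 285 of the difference. Within replicates 1 and 2 the 4 counts were 469, 616, 499 and 826, and within replicates 3 and 4 they were 420, 331, 566 and 572; some groups then hold 1 array, assumed to vary like the others. With each array left out in turn the counts ran from 167 to 218, 185 to 282, 257 to 405 and 276 to 391, with 405 and 391 reached without SM replicate 1. The share of higher calls, 53.6%, was 69.2% on signal plus 16, 68.8% above the limit, 45.6% after quantile normalization, 44.3% with the replicate block, 64.6% within replicates 1 and 2 and 35.7% within replicates 3 and 4, 66% without SS replicate 2 and 43.6% without MM replicate 2. With the replicate block the counts were 228, 253, 316 and 354, 131 of the 183 probes were shared, and probes with an unadjusted p under 0.05 went from 545 to 911. The labels do not say what a number marks; deviations of same-numbered arrays had a median correlation of 0.116 (8 of 15 pairs over 0.1), against -0.068 for pairs across replicates 1 and 2 and 3 and 4 (3 of 32), and 7 of 13 arrays correlated best with their own number. Adjusted p under 0.05 was reached by 59 probes within replicates 1 and 2 (smallest 0.0473), 2 with no filter (0.00459), 2 without a trend (0.00246) and 2 without SM replicate 1 (0.0347). The cause of these changes was not tested. The 24 leading genes kept an unadjusted limma p under 0.05 in each fit with 1 array left out and under each scaling, floor, filter and block. Their choice by p on these same arrays favours that, so it is no independent support. Not all of them kept it within replicates 1 and 2 or within replicates 3 and 4. None of 73 named genes with an unadjusted limma p under 0.05 changed direction, which their choice likewise favours. List medians changed sign within replicates 1 and 2 for antioxidant (-0.01), cortex and hippocampus (-0.04), red nucleus (-0.02), heat shock (-0.03), dopamine neuron (0.09), astrocyte (0.01), chromatin (0.02) and synaptic genes (-0.04), and within replicates 3 and 4 for blood cells (0.13), neurotrophic (-0.04), interferon (-0.03) and myelin genes (0.03). Medians near 0 also changed sign under other settings, and that of immediate early genes under 9. The glucocorticoid-responsive (-0.23 to -0.11) and cerebellar (0.15 to 0.31) medians kept their sign.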
